A study of Mus musculus with 10 samples.

Results

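Eph receptors are the largest family of receptor tyrosine kinases, and ephrins are their ligands, which stay attached to the membrane of the neighbouring cell. EphA receptors bind mainly the ephrin-A proteins, which are held by a lipid anchor, and EphB receptors bind mainly the ephrin-B proteins, which span the membrane. Contact between cells starts forward signalling in the cell with the receptor and reverse signalling in the cell with the ephrin, and both work largely on the actin cytoskeleton, on adhesion and on repulsion. In the retina the family is best known for graded expression across the ganglion cell layer, which guides axons to their place in the brain. Here 10 genes of this family were followed after light damage: the receptors Epha2, Epha4, Epha5, Epha7, Ephb1 and Ephb2 and the ligands Efna1, Efna5, Efnb1 and Efnb2. They were taken by gene name and are 10 of the 54532 genes in the deposited expression table.

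RNA was sequenced from 10 neural retina samples of BALB/c mice, an albino strain whose photoreceptors are sensitive to light. All mice were 2 months old and spent 12 h in the dark before the exposure. 5 samples came from normal light (NL), which was 200 lux for 1 day, and 5 from high-intensity light (LD), which was 15000 lux for 1 day. Samples are named here by group and by the number in their label (NL-1, NL-4, NL-5, NL-7, NL-8, LD-1, LD-4, LD-6, LD-7 and LD-8). The labels give no sex and do not say whether a sample is 1 retina, 1 animal or a pool, so that the p-values measure the spread between these samples; the word retina is used below for a sample.

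Levels are given in FPKM, that is, fragments scaled to the length of the exons and to the size of the library. The length covers the exons of all annotated transcripts of a gene, 4674 bases for Epha2 and 1830 for Efna1. Which transcripts were present is not known, so that levels of different genes can be compared only roughly. Each retina had 18965090 to 26832535 reads on genes. The tissue was checked by summed levels of marker genes. Rod markers summed to 7747 to 9529 FPKM in NL retinas and to 1060 to 2270 in LD retinas, and cone markers to 288 to 449 and 35.5 to 148. All 6 rod and all 5 cone markers fell, while none of 7 ganglion cell, 5 amacrine cell and 6 bipolar cell markers passed the test. Of 4 horizontal cell markers Onecut2 rose and Lhx1 fell, with log2 fold changes of 0.88 and -0.55. From RNA levels of whole retinas alone, fewer cells of a type and less RNA per cell cannot be told apart. For the same light exposure the paper describes retinal sections without obvious degeneration. Cell numbers were not tested here. Lens and cornea markers were near 0 in every retina, with sums of at most 0.716 and 0.551 FPKM.

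LD-4 and LD-6 stood apart from the other 3 LD retinas. They were the closest pair of LD retinas, with a chi-square per gene of 2.65 between them and 23.7 to 43.4 between either and another LD retina. A further 2 pairs were nearly as close, LD-1 with LD-7 (3.65) and NL-5 with NL-7 (2.87), and every other pair within a group had at least 12.15. Nothing in the labels says whether the retinas of such a pair share an animal or a batch. With each of the 3 pairs averaged to 1 sample, which leaves 4 NL and 3 LD samples, Epha2, Efna1, Epha7 and Ephb1 had adjusted p-values of 4.54e-04, 0.0104, 0.00921 and 0.0154 by limma. Both had lower summed levels of rod markers (1060 and 1142 FPKM) and of cone markers (35.5 and 42.7) than the other LD retinas. LD-4 and LD-6 lay above the other 3 for all 7 endothelial cell, all 5 pericyte and smooth muscle and 6 of 7 Müller glia markers. The same held for 5 of 6 bipolar cell and 3 of 4 horizontal cell markers. It held for only 3 of 7 ganglion cell and 1 of 5 amacrine cell markers. Results below are therefore also given without both, which was decided after seeing the data.

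All 10 genes reached 0.1 FPKM in 5 or more retinas, the limit for testing, as did 24508 genes in all. By limma on log2(FPKM + 0.1), with Benjamini-Hochberg adjustment over all genes tested and a threshold of 0.05, Epha2, Efna1 and Epha7 rose after LD and Ephb1 fell. These 4 of 10 genes stand against 27.8% of all genes tested, and the 3 that rose against the 14.5% of all genes tested that rose. Among the 15624 genes left by a filter at 1 FPKM the share past 0.05 was 38.6%, with the same 4 genes of the 10. With an adjusted p under 0.01 and a change over 2-fold, 2 genes passed, Epha2 and Efna1, against 6.51% of all genes in either direction and 4.13% that were higher. The groups did not overlap for the same 4 genes, against 22.4% of all genes (11.8% higher and 10.6% lower). The median log2 fold change over the 10 genes was 0.20, and over all genes tested it was -0.01. Fold changes below are LD against NL on the log2(FPKM + 0.1) scale, which understates the change of genes at low levels.

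**Figure D1:**
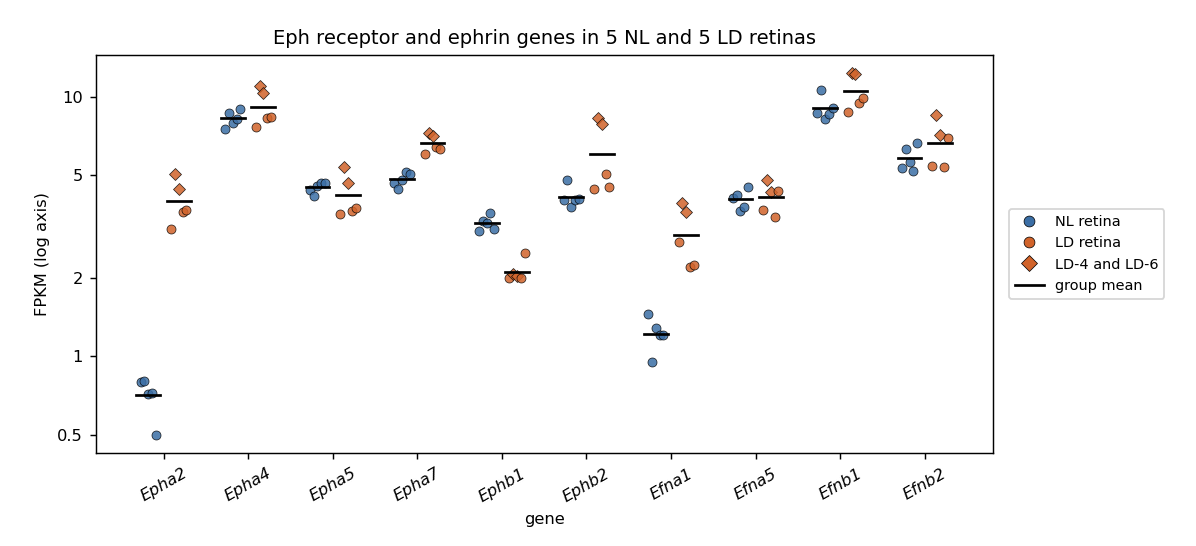
Level of each of the 10 genes in FPKM, on a log axis, in the 5 NL retinas (blue) and the 5 LD retinas (orange, with LD-4 and LD-6 as diamonds); black lines are group means. The groups lie apart for Epha2, Epha7, Ephb1 and Efna1, and LD-4 and LD-6 are the highest LD retinas for 8 of the 10 genes.

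Epha2 encodes EphA2, a receptor of epithelial and endothelial cells and of many tumours, which binds ephrin-A1 with high affinity. It had the largest change of the 10 genes. In the NL retinas its levels were 0.800, 0.806, 0.717, 0.726 and 0.498 FPKM in NL-1, NL-4, NL-5, NL-7 and NL-8. In LD-1, LD-4, LD-6, LD-7 and LD-8 they were 3.09, 5.04, 4.43, 3.59 and 3.68 FPKM. The 5 LD values all exceeded the 5 NL values, with LD-4 and LD-6 the highest, and the lowest value of all was that of NL-8. The means were 0.709 ± 0.125 and 3.97 ± 0.769 FPKM (SD, n = 5 each), a ratio of 5.59. The log2 fold change was 2.32 (SE 0.16), with an adjusted p of 3.34e-06 by limma. An exact two-sided permutation test of 5 against 5 retinas gave 0.00794, the smallest p it allows. These levels rest on 60 to 80 reads in each NL retina and on 352 to 478 in each LD retina. Without LD-4 and LD-6 the log2 fold change was 2.15 and the adjusted p 5.23e-05 by limma.

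Epha2 lies on chromosome 4 (chr4:141301240-141329384, GRCm38, plus strand). Its promoter is printed because the gene changed most. The 250 bases before its RefSeq start (chr4:141300971-141301220, GRCm38.p6, plus strand) are given 5′ to 3′, with matched motifs in capitals.
Epha2 promoter: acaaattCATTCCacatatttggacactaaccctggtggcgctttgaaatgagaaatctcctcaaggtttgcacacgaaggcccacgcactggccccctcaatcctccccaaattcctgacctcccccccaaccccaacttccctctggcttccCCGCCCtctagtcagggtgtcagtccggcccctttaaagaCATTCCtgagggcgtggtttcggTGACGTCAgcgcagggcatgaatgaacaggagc
The windows of all 10 genes were searched on both strands for the cAMP response element (TGACGTCA), the AP-1 element (TGANTCA), the STAT element (TTCNNNGAA), the core of the hypoxia response element (ACGTG), the YAP and TEAD element (GGAATG), the TATA box (TATAAA), the CCAAT box, the GC box (GGGCGG), and by name alone the interferon response element, the CArG box of the serum response and the NF-kappaB motif. In the Epha2 window TGACGTCA stood 33 to 26 bases before the start, and 1.55% of the 32851 RefSeq windows of this length held it. None of the other 9 genes had it. GGAATG, held by 12.6% of windows, stood on the other strand as CATTCC at 243 to 238 and at 56 to 51 bases before the start. A GC box, held by 32.7% of windows, stood at 96 to 91 bases before it. None of these matches overlapped another. A match is a run of letters and does not show that a factor binds there.

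Efna1 encodes ephrin-A1, a ligand with a lipid anchor and the main partner of EphA2, which is known from blood vessel growth. It too rose after LD. Its levels were 1.46, 0.952, 1.29, 1.21 and 1.21 FPKM in NL-1, NL-4, NL-5, NL-7 and NL-8, and 2.76, 3.91, 3.59, 2.21 and 2.26 FPKM in LD-1, LD-4, LD-6, LD-7 and LD-8. The groups did not overlap, and LD-4 and LD-6 were again the highest. The means were 1.22 ± 0.183 and 2.94 ± 0.774 FPKM (SD, n = 5 each). The log2 fold change was 1.18 (SE 0.18), with an adjusted p of 6.93e-04 by limma and an exact permutation p of 0.00794. Its levels rest on few reads, 37 to 57 in each NL retina and 92 to 147 in each LD retina. Without LD-4 and LD-6 the log2 fold change was 0.93 with an adjusted p of 0.00305 by limma, so that the gene still rose but no longer by over 2-fold. Efna1 lies at chr3:89271733-89281142 (minus strand). Of its 2 RefSeq windows, both partly or wholly inside the gene itself, each held a GC box and no other motif searched.

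The receptor and its ligand did not rise by the same factor. The ratio of Epha2 to Efna1 FPKM was 0.550, 0.847, 0.555, 0.600 and 0.412 in NL-1, NL-4, NL-5, NL-7 and NL-8, so that the ligand had the higher FPKM in every NL retina. It was 1.12, 1.29, 1.23, 1.63 and 1.63 in LD-1, LD-4, LD-6, LD-7 and LD-8, so that the receptor had the higher FPKM in every LD retina. Which gene has the higher FPKM depends on the gene lengths used, whereas the change of the ratio between groups does not. The mean ratio was 0.593 ± 0.158 in NL and 1.38 ± 0.234 in LD (SD, n = 5 each). The log2 ratio was higher by 1.24 after LD, with an exact two-sided permutation p of 0.00794. In this ratio LD-4 and LD-6 lay between LD-1 and the other LD retinas, unlike in the levels themselves.

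**Figure D2:**
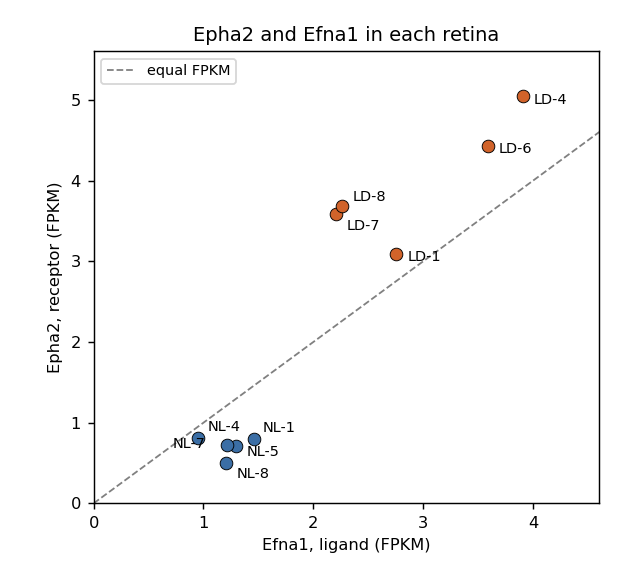
FPKM of the receptor Epha2 against FPKM of the ligand Efna1 in each of the 10 retinas (blue NL, orange LD), with a dashed line at equal FPKM. The 5 NL retinas lie below the line and the 5 LD retinas above it.

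Among all 9 EphA receptor genes in the table, Epha2 made up 1.08 to 1.99% of the summed FPKM in NL retinas and 7.38 to 9.16% in LD retinas. The sum itself was 42.4 ± 2.30 FPKM in NL and 48.4 ± 5.40 in LD (SD, n = 5 each), and the groups overlapped. Epha2 thus stayed a small share of the summed EphA receptor FPKM. Efna1 made up 6.79 to 10.7% of the summed FPKM of 5 ephrin-A genes in NL retinas and 14.9 to 21.8% in LD retinas.

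Epha7 encodes EphA7, one of the EphA receptors of the developing visual system, which also occurs as a form without the kinase domain. It rose by a smaller factor than Epha2. Its levels were 4.66, 4.41, 4.8, 5.13 and 5.03 FPKM in NL-1, NL-4, NL-5, NL-7 and NL-8, and 6.03, 7.27, 7.09, 6.43 and 6.32 FPKM in LD-1, LD-4, LD-6, LD-7 and LD-8. Again no LD value reached down to the NL values. The means were 4.81 ± 0.289 and 6.63 ± 0.531 FPKM (SD, n = 5 each), with 926 to 1568 reads per retina. The log2 fold change was 0.45 (SE 0.07), with an adjusted p of 6.35e-04 by limma and an exact permutation p of 0.00794. Without LD-4 and LD-6 it was 0.38, with an adjusted p of 0.00414 by limma.

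Epha7 lies at chr4:28813131-28967499 (plus strand). The 250 bases before its upstream RefSeq start (chr4:28812881-28813130, GRCm38.p6, plus strand) are shown for comparison with Epha2, the other receptor gene that rose.
Epha7 promoter: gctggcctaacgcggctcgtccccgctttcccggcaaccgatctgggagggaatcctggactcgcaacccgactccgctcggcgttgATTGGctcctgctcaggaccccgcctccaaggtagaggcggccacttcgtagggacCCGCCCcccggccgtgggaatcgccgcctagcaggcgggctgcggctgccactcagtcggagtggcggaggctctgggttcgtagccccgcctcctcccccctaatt
The capitals mark a CCAAT box, read on the other strand, at 163 to 159 bases before the start and a GC box at 107 to 102 bases before it. CCAAT was held by 33.9% of all windows. The window held neither TGACGTCA nor GGAATG.

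Epha4 encodes EphA4, which binds ligands of both classes, and Epha5 encodes EphA5, a receptor that ganglion cell axons use in mapping. Neither passed the test. Epha4 was at 7.53 to 8.96 FPKM in NL retinas and at 7.65 to 11 in LD retinas, with a log2 fold change of 0.13 (95% interval -0.09 to 0.36) and an adjusted p of 0.379 by limma. Its 2 high LD values were those of LD-4 and LD-6, and without both the log2 fold change was -0.03. Epha5 was at 4.37, 4.17, 4.54, 4.65 and 4.67 FPKM in NL-1, NL-4, NL-5, NL-7 and NL-8, and at 3.54, 5.36, 4.68, 3.62 and 3.74 FPKM in LD-1, LD-4, LD-6, LD-7 and LD-8. LD-4 and LD-6 were thus above every NL retina and the other 3 LD retinas below every NL retina. The log2 fold change of Epha5 over all retinas was -0.11 (95% interval -0.36 to 0.14), with an adjusted p of 0.512 by limma. Without LD-4 and LD-6 it was -0.29 with an adjusted p of 0.0125 by limma, so that the call of Epha5 rests on whether this pair is included. The pseudogene Hmgn2-ps1 lies within the span of Epha5 on the other strand but shares 0 exon bases with it.

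Ephb1 encodes EphB1, the receptor that turns ventrotemporal ganglion cell axons away from the midline at the optic chiasm. It was the only one of the 10 genes that fell. Its levels were 3.03, 3.32, 3.26, 3.57 and 3.09 FPKM in NL-1, NL-4, NL-5, NL-7 and NL-8, and 2.00, 2.08, 2.04, 2.01 and 2.50 FPKM in LD-1, LD-4, LD-6, LD-7 and LD-8. Every LD retina was below every NL retina, and 4 of the 5 LD values lay between 2.00 and 2.08 FPKM while LD-8 was higher. The means were 3.26 ± 0.213 and 2.12 ± 0.214 FPKM (SD, n = 5 each), from 454 to 558 and 295 to 390 reads per retina. The log2 fold change was -0.60 (SE 0.09), with an adjusted p of 4.92e-04 by limma and an exact permutation p of 0.00794. LD-4 and LD-6 did not stand apart here, and without both the log2 fold change was -0.57 with an adjusted p of 0.00488 by limma. The ganglion cell marker sum was 233 to 273 FPKM in NL retinas and 224 to 258 in LD retinas. Among 5 EphB receptor genes, the share of Ephb1 in the summed FPKM was 17.2 to 20.4% in NL and 8.20 to 12.7% in LD.

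Ephb1 lies at chr9:101922128-102354693 (minus strand) and shares 152 exon bases with Gm26846, a long noncoding RNA on the opposite strand that was at 0.0421 FPKM in NL and 0.0407 in LD. Whether the counting used strand is not given in the sources used here, so that reads in such shared exons cannot be assigned to 1 of the genes. Its promoter is printed as that of the gene that fell, with the 250 bases before the RefSeq start (chr9:102354694-102354943, GRCm38.p6) read on the minus strand.
Ephb1 promoter: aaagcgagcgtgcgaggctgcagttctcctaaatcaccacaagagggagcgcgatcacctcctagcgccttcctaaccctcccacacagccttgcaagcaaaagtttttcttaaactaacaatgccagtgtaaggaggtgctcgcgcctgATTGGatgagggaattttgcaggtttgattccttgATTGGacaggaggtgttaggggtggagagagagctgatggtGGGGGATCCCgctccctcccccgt
The capitals mark a CCAAT box on the other strand at 100 to 96 and again at 65 to 61 bases before the start, and a match to the NF-kappaB motif at 24 to 15 bases before it. The NF-kappaB motif was held by 7.25% of all windows. Ephb2, which did not pass the test, also had this motif and a CCAAT box in its window.

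Ephb2 encodes EphB2, a receptor at excitatory synapses and, in the retina, a receptor graded towards the ventral side. Its levels were 4.01, 4.79, 3.75, 4.0 and 4.06 FPKM in NL-1, NL-4, NL-5, NL-7 and NL-8, and 4.41, 8.28, 7.88, 5.07 and 4.5 FPKM in LD-1, LD-4, LD-6, LD-7 and LD-8. The groups overlapped, since LD-1 and LD-8 lay below NL-4, while LD-4 and LD-6 had the highest values. The means were 4.12 ± 0.390 and 6.03 ± 1.90 FPKM (SD, n = 5 each). The log2 fold change was 0.49 (SE 0.18), with an adjusted p of 0.0724 by limma. It was 0.17 without LD-4 and LD-6, with an adjusted p of 0.227 by limma. Its call depends on the scaling and on single retinas: the adjusted p was 0.0330 with TPM and 0.0293 without the factor per retina that the deposited values hold, and it was also under the threshold without LD-1 or without LD-8. Of the 10 genes Ephb2 had the largest ratio of the mean of LD-4 and LD-6 to the mean of the other LD retinas, 1.73.

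Of the other ligands, Efna5 encodes ephrin-A5, the graded ligand of retinal mapping, and Efnb1 and Efnb2 encode ephrin-B1 and ephrin-B2, which signal in reverse through their cytoplasmic tails. None of the 3 passed the test. Efna5 was at 3.63 to 4.49 FPKM in NL and 3.44 to 4.77 in LD, with a log2 fold change of 0.02 (95% interval -0.20 to 0.24) and an adjusted p of 0.916 by limma. Efnb1 was at 8.23 to 10.7 FPKM in NL and 8.76 to 12.4 in LD, with a log2 fold change of 0.21 (95% interval -0.03 to 0.45) and an adjusted p of 0.181 by limma. Efnb2, known as a marker of arteries, was at 5.19 to 6.62 FPKM in NL and 5.37 to 8.50 in LD, with a log2 fold change of 0.18 (95% interval -0.11 to 0.47) and an adjusted p of 0.350 by limma. For both ephrin-B genes the highest levels were in LD-4 and LD-6. Without both, the log2 fold change was 0.06 for Efnb1, 0.02 for Efnb2 and -0.08 for Efna5.

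In NL retinas the order of the 10 genes by mean FPKM was Efnb1 (9.05), Epha4 (8.26), Efnb2 (5.81), Epha7 (4.81), Epha5 (4.48), Ephb2 (4.12), Efna5 (4.04), Ephb1 (3.26), Efna1 (1.22) and Epha2 (0.709). The ranges of neighbours in this order overlapped between Efnb1 and Epha4 and along the run from Epha7 to Efna5, and did not overlap for the other neighbours. In LD retinas the order was Efnb1 (10.6), Epha4 (9.14), Efnb2 (6.67), Epha7 (6.63), Ephb2 (6.03), Epha5 (4.19), Efna5 (4.11), Epha2 (3.97), Efna1 (2.94) and Ephb1 (2.12). Here the ranges of all neighbours overlapped. Ephb1 thus went from the eighth place to the last, and Epha2 from the last place to the eighth.

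LD-4 and LD-6 both lay above the other 3 LD retinas for 8 of the 10 genes, all but Ephb1 and Efna5, and below them for none. Of all genes tested, 20% had both above the other LD retinas and 22.3% had both below. The ratio of the mean of LD-4 and LD-6 to the mean of the other 3 ranged from 0.949 for Ephb1 to 1.73 for Ephb2. The endothelial cell marker sum was 89.2 and 89.4 FPKM in LD-4 and LD-6, 53.7 to 57.4 in the other LD retinas and 39.0 to 48.4 in NL retinas. Most of this sum was Kdr, at 64.4 and 62.5 FPKM in LD-4 and LD-6, 38.1 to 45.8 in the other LD retinas and 27.1 to 37.1 in NL retinas. In NL retinas Cldn5 and Esam averaged 5.58 and 5.12 FPKM. Pecam1, Tek, Cdh5 and Tie1 averaged 0.92, 0.83, 0.62 and 0.33 FPKM there. The sum thus mainly follows Kdr, and whether its Kdr RNA came from endothelial cells was not tested. Taken singly, all 7 endothelial cell markers were higher in LD-4 and LD-6 than in the other LD retinas. All 4 dorsal retina markers, but only 1 of 4 ventral retina markers, were also higher in both than in the other LD retinas. So were 5 of 6 bipolar cell markers, whereas all 6 rod and all 5 cone markers were lower in both. The part of these other cells in the levels of the 10 genes was not tested.

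**Figure D3:**
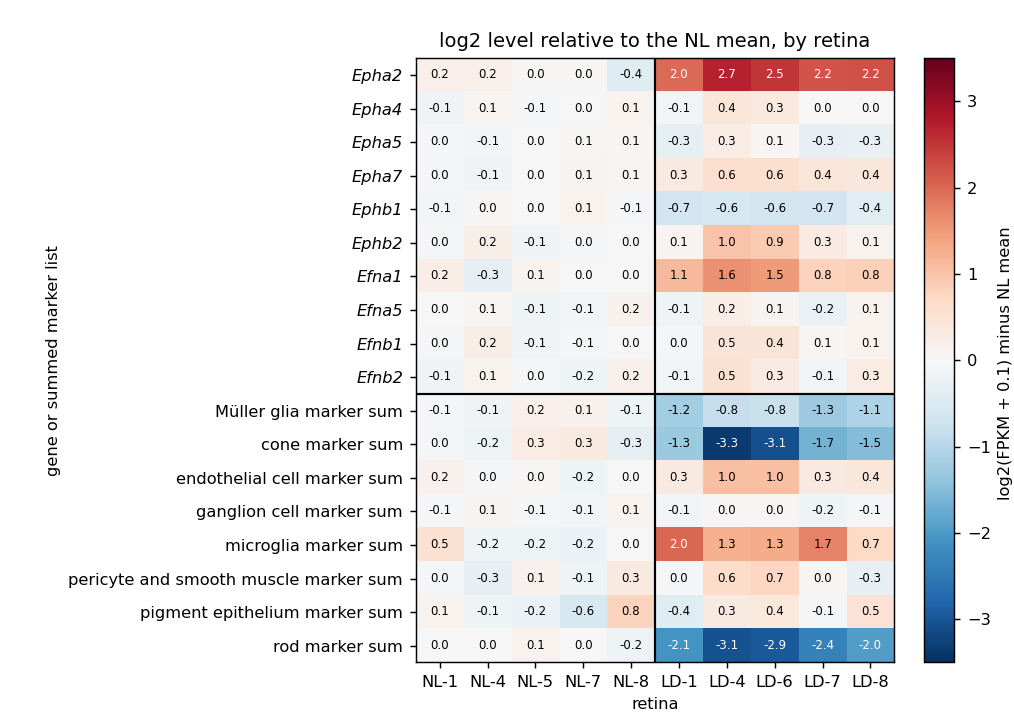
Each cell gives log2(FPKM + 0.1) of a gene, or of the summed FPKM of a marker list, minus its mean over the 5 NL retinas, with retinas in columns (red higher, blue lower). Epha2 is higher in all 5 LD retinas, while Ephb2 and the endothelial cell sum are highest in LD-4 and LD-6, in which the rod and cone sums are lowest. Most of the endothelial cell sum is Kdr, and most of the Müller glia sum in NL retinas is Glul.

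Markers of other cells also moved with LD. Of 5 microglia markers C1qa, Cx3cr1 and Csf1r rose, with log2 fold changes of 1.86, 1.14 and 0.74, respectively. P2ry12 (-0.74) and Tmem119 (0.22) did not pass the test. The sum of all 5 was 15.4 to 26.0 FPKM in NL and 28.7 to 71.7 in LD. Its highest values were in LD-1 and LD-7 (71.7 and 59.3 FPKM), where C1qa alone was at 54.5 and 45.3 FPKM. Of 7 endothelial cell markers only Kdr rose. Of 7 Müller glia markers Vim, Sox9 and Slc1a3 rose and Glul fell, with log2 fold changes of 2.02, 0.79, 0.50 and -2.09, respectively. Of 3 astrocyte markers Gfap, the marker of reactive glia, rose with a log2 fold change of 3.20, while S100b (-0.47) and Pax2 (0.36) did not pass the test. Of 5 pericyte and smooth muscle markers only Cspg4 rose, from 0.0760 to 0.411 FPKM on average. Of 4 ventral retina markers only Aldh1a3 rose, from 0.183 to 0.900 FPKM on average, and none of 4 dorsal retina markers passed the test. Of 7 pigment epithelium markers 1 rose and 1 fell, and their sums overlapped between the groups (54.8 to 140 and 60.3 to 115 FPKM). The part of these cells in the changes of Epha2, Efna1, Epha7 and Ephb1 was not tested.

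The other 12 genes of the family were all tested as well. Of these, 3 rose, none fell and none passed the 2-fold rule, against 14.5%, 13.4% and 6.51% of all genes tested, with a median log2 fold change of 0.06. Ephb4, the receptor of veins, was at 1.02 ± 0.223 FPKM in NL and 1.72 ± 0.367 in LD (SD, n = 5 each), with a log2 fold change of 0.70 and an adjusted p of 0.0143 by limma. It shares 33 exon bases with Zan on the opposite strand, which fell (log2 fold change -2.40). Ephb3, a receptor close to EphB2, had a log2 fold change of 0.51 and an adjusted p of 0.0283 by limma, and the groups overlapped, with LD-1 at 2.31 FPKM against a highest NL value of 2.48. Efna4, ephrin-A4, was at a low level, with 12 to 21 reads in each NL retina and 18 to 43 in each LD retina, a log2 fold change of 0.86 and an adjusted p of 0.0276 by limma. It shares 168 exon bases with an antisense gene. Without LD-4 and LD-6 all 3 kept their direction, with log2 fold changes of 0.50 for Ephb4, 0.31 for Ephb3 and 0.63 for Efna4, and had adjusted p-values of 0.0938, 0.133 and 0.165 by limma. The call of Efna4 was also lost without NL-1, NL-7, NL-8, LD-4, LD-6 or LD-8 alone, where its log2 fold change was 0.76 to 0.82 and its adjusted p at most 0.0684, and that of Ephb3 without NL-4, NL-5, NL-7, NL-8, LD-4, LD-6 or LD-8 alone, where these were 0.40 to 0.51 and at most 0.0675. Among all 22 genes of the family, 6 rose and 1, Ephb1, fell, again against 14.5% and 13.4% of all genes tested. The genes of the family at the highest level in NL were Efnb3 (13.7 FPKM) and Epha8 (13.5), which had log2 fold changes of -0.19 and 0.09 with adjusted p of 0.0788 and 0.482 by limma. Without NL-1 alone Efnb3 passed the test as lower, with a log2 fold change of -0.24 and an adjusted p of 0.0214 by limma.

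**Figure D4:**
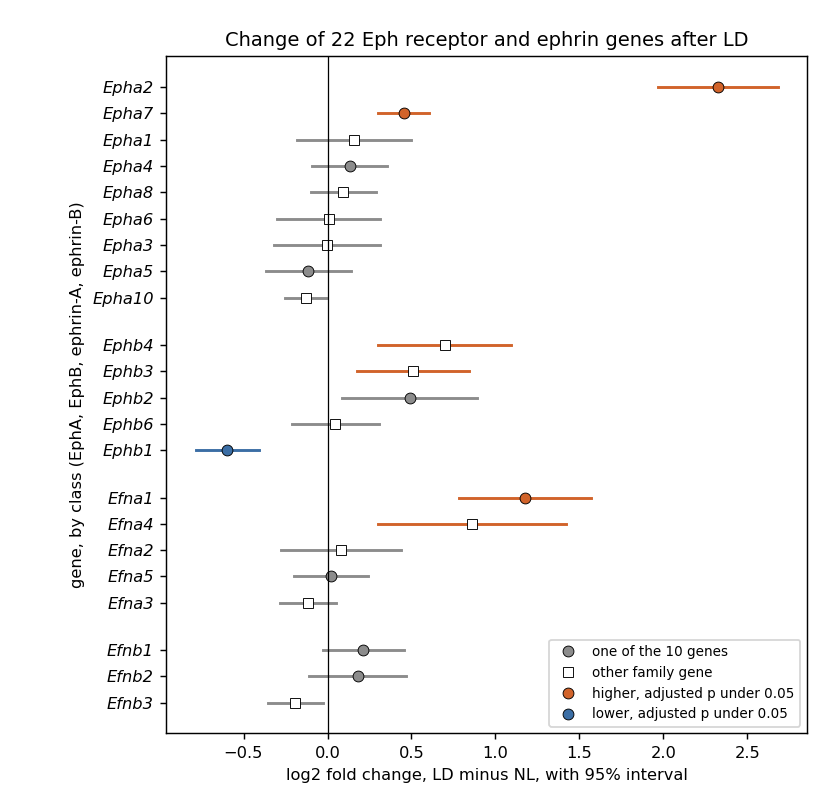
Log2 fold change of LD against NL, with its 95% interval, for all 22 Eph receptor and ephrin genes, by class; filled circles are the 10 genes and open squares the other 12, and orange and blue lines mark an adjusted p under 0.05. Epha2 (2.32) and Efna1 (1.18) have the largest changes, and Ephb1 (-0.60) is the only gene past the threshold as lower.

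Genes whose products act next to Eph receptors and ephrins were followed as a list of 47. Of these, 20 rose and 1 fell, against 14.5% and 13.4% of all genes tested, and the median log2 fold change was 0.12. With the filter at 1 FPKM, 22 genes of this list passed 0.05 in either direction, against 38.6% of the 15624 genes then tested. Many of these products also serve other receptors. Among 16 regulators and effectors of GTPases on the forward side, 8 rose. The largest changes were those of Rock2, a kinase that promotes the contraction of actomyosin, at 10.8 ± 0.968 FPKM in NL and 26.1 ± 4.81 in LD (SD, n = 5 each), with a log2 fold change of 1.25, and of Rin1, a Rab5 exchange factor that acts with EphA4, with 1.14. Ngef, which encodes ephexin-1, an exchange factor bound to EphA4, rose with a log2 fold change of 0.55. The gene that fell was Itsn1, an exchange factor for Cdc42 that acts with EphB2, with a log2 fold change of -0.22. Adjusted p-values of these 4 genes ranged from 2.60e-05 to 0.00241 by limma.

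Among 15 kinases, adaptors and phosphatases at the receptors, 5 rose and none fell; the share of all genes tested that rose, for this and the following groups, was 14.5%. Ptpn1, a phosphatase that can act on activated Eph receptors, was at 10 ± 0.438 FPKM in NL and 22.5 ± 2.45 in LD (SD, n = 5 each), with a log2 fold change of 1.16. Src rose with a log2 fold change of 0.57. On the reverse side 2 of 7 genes rose: Sdcbp, which encodes syntenin, a PDZ protein that binds ephrin-B tails (log2 fold change 0.97), and Ptpn13, a phosphatase that binds ephrin-B (0.48). Of 6 genes for the shedding and cleavage of receptors and ligands, 3 rose, while Adam10, the sheddase of ephrins, had a log2 fold change of -0.02 and did not pass the test. Of 3 co-receptors of ephrin-A, Ntrk2, the receptor for brain-derived neurotrophic factor, and Ngfr rose. Ngfr was close to the threshold, at 7.06 to 10.6 FPKM in NL and 9.09 to 12.4 in LD, with a log2 fold change of 0.38 and an adjusted p of 0.0476 by limma. It lost its call in 14 of 23 alternatives, among them those without NL-1, NL-5, NL-7, NL-8, LD-4, LD-6 or LD-8 alone, with a log2 fold change of 0.27 and an adjusted p of 0.237 by limma without LD-4 and LD-6. The adjusted p-values of Ptpn1, Src, Sdcbp, Ptpn13 and Ntrk2 (log2 fold change 0.48) ranged from 1.75e-06 to 0.00338 by limma. Without LD-4 and LD-6, 14 of the 47 genes passed the test instead of 21, against 21.3% of all genes tested instead of 27.8%, and the 8 genes of this list named for the largest changes all did.

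**Figure D5:**
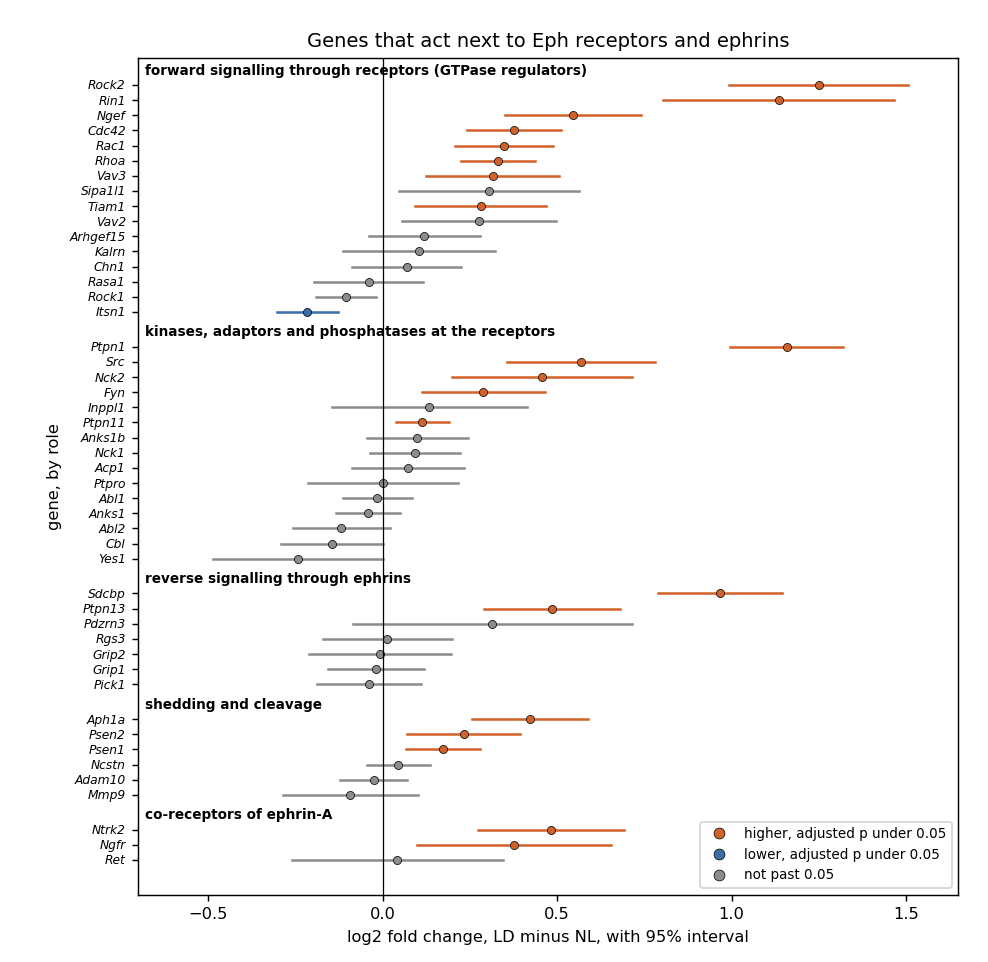
Log2 fold change of LD against NL, with its 95% interval, for the 47 genes that act next to Eph receptors and ephrins, by role; orange rose, blue fell and grey did not pass an adjusted p of 0.05. Rock2 (1.25), Ptpn1 (1.16) and Rin1 (1.14) have the largest changes.

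The protein-coding genes outside the family with the pattern most like that of Epha2 over the 10 retinas were Actb (r = 0.997), Vasp (0.995) and Arpin (0.994), among 12408 candidates with a mean of at least 1 FPKM. The measure was Pearson's r of log2(FPKM + 0.1), given as a description, since all points share the split between NL and LD. Actb, cytoplasmic beta-actin, was at 84.7 ± 4.15 FPKM in NL and 165 ± 7.39 in LD (SD, n = 5 each), Vasp at 7.6 ± 0.497 and 16.6 ± 1.56, and Arpin at 11.2 ± 0.475 and 18.6 ± 0.883. The 3 products are actin itself, a factor that promotes actin filament growth and an inhibitor of the Arp2/3 complex. For Ephb1 the most similar genes were Stk35 (r = 0.986), Tmem63b (0.983) and Suds3 (0.983).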

How the data were processed

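RNA from NL and LD retinas was extracted with TRIzol and made into TruSeq libraries. The paper and the series text name different Illumina instruments. The authors deposited FPKM values for 54532 genes, normalized by a company. The submitters' processing notes name TopHat2 2.0.9, Bowtie2 2.0.6 and mm8, but the positions in the table are on GRCm38, and all 10 genes had the same start and end in GENCODE M21. The counting program is not given in the sources used here. FPKM times length gave whole reads for 100% of values (tolerance 0.01), with library sizes scaled by a factor of 0.951 to 0.968 in NL and 1.04 to 1.07 in LD. Intervals cover the spread between samples, and read numbers counting only.

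Genes that reached 0.1 FPKM in 5 or more retinas were tested with limma 3.58.1 (R 4.3.3) on log2(FPKM + 0.1), with a trended prior, no block and Benjamini-Hochberg adjustment. Group means of log2(FPKM + 0.1) for single genes, and of the log2 ratio of Epha2 to Efna1, were compared by exact permutation tests over the retinas. The code was tested on simulated data. The 10 genes and all lists were chosen with earlier results of these data known. Named genes were all family genes, the 8 signalling genes with the largest change past 0.05, marker genes, and for Epha2 and Ephb1 the 3 most similar genes. Genes outside this rule (Itsn1, Adam10, Ngfr, Zan, Gm26846 and Hmgn2-ps1) were named after their values were seen. Promoters are from RefSeq (GRCm38.p6), and all 10 genes matched. Alternatives changed the pseudocount, the filter, the scaling, the model and the retinas included. The shared sample numbers were not used for pairing.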

Additional observations from a re-analysis of the deposited data

Results flagged for a closer look

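In groups of 5 retinas, 3 values lay apart from the other 4 by more than Dixon's critical value of 0.71, among 42 groups tested, of which chance alone gives about 2.1 (1 in 20). Epha2 in NL-8 was at 0.498 FPKM, against 0.717 to 0.806 in the other NL retinas. Ephb1 in LD-8 was at 2.50 FPKM, against 2.00 to 2.08 in the other LD retinas. Src in NL-4 was at 15.6 FPKM, against 13.2 to 13.6 in the other NL retinas. Leaving out NL-8 or LD-8 did not change the call of Epha2 or Ephb1.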

How the results depend on the processing

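Epha2, Efna1, Epha7 and Ephb1 passed 0.05 with the same direction in all 23 alternatives, with log2 fold changes of 1.53 to 2.54, 0.81 to 1.33, 0.38 to 0.59 and -0.65 to -0.45. The number of the 10 genes past 0.05 was 4 to 5 when 1 retina was left out. The 2-fold rule kept 1 of the 10 genes with a pseudocount of 1, with the 3 closest pairs of retinas (NL-5 with NL-7, LD-1 with LD-7, LD-4 with LD-6) averaged, with the replicate block and without LD-4 and LD-6. Of the other 12 family genes, 1 passed with the closest pairs averaged, 1 to 3 with 1 retina left out (1 without NL-7, NL-8, LD-4, LD-6 or LD-8), and 0 without LD-4 and LD-6 or over the 8 retinas with shared numbers, with no replicate block or with it. Same-numbered NL and LD retinas did not deviate together (r of -0.09 to 0.07), so that the numbers do not show pairs; with the replicate block 10 signalling genes passed, without Ptpn13 (0.47, adjusted p 0.0639) and Ntrk2 (0.40, adjusted p 0.0700), and of all genes 3805 passed 0.05 and 808 the 2-fold rule. Over all genes 4353 passed 0.05 with the closest pairs averaged, and 816 the 2-fold rule with a pseudocount of 1, while limma-voom on the recovered reads passed 6914 genes at 0.05, the same 4 of the 10 genes among them. Scaling by TPM or without the factor per retina moved the median of all genes by 0.10 and 0.13, and 71.0% and 74.1% of the calls at 0.05 were then higher, against 52.0%. Ephb2 then passed (log2 fold change 0.60 and 0.62, or 0.49 relative to the shift in both), as did Efnb1 without the factor (0.35, or 0.22 relative to the shift). Ephb2 also passed without LD-1 (0.59) and without LD-8 (0.58). The direction reversed for 3 genes that had not passed. These were Epha4 without LD-4 and LD-6 (-0.0258), Epha5 without the factor (0.0173), and Efna5 in 9 alternatives. Efna5 reversed with quantile normalization (-0.0421) and over the shared numbers without and with the replicate block (-0.0374 in both). It also reversed without LD-4 and LD-6 (-0.0814) and in some but not all fits with 1 retina left out. The log2 fold change of Efna5 in those fits was -0.0366 to 0.0783. The cause of these differences was not tested. Efna4 was not tested with a filter at 1 FPKM. Of the 3 other family genes that passed, Efna4 rests on the fewest reads.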
